A study of Rattus norvegicus with 6 samples.

Results

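Genes that bring glucose into the β-cell and couple its metabolism to the mitochondria were followed in replicating and quiescent β-cells. The genes were *Slc2a2*, *Slc2a1*, *G6pc2*, *Pc*, *Glud1*, *Gpd2*, *Mdh1*, *Me1* and *Ucp2*, and each was taken where the array files gave exactly that gene name to a spot that was not a control. Of the 9 genes, 8 were found, among 36174 gene names and 45598 transcript sequences on the array, and *G6pc2* was the one without a spot under its name. The rule itself uses gene names and no measured value, but the list was drawn up with earlier results of these arrays known. Each of the 8 genes had 1 sequence on 1 spot, and each was well above background, by the scanner software's own mark, on all 6 arrays.

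The study measured global gene expression in β-cells sorted from islets of young adult male Wistar rats. Islets from 4 rats were pooled for each of 3 preparations, cultured overnight at basal glucose with EdU, a thymidine analogue that enters DNA as it is copied, dispersed, loaded with the zinc dye Newport Green and fixed in paraformaldehyde. Cells in the β-cell gate (size, granularity and dye) were then divided into EdU-positive (replicating) and EdU-negative (quiescent) fractions, so that each preparation gave 1 array per group, 3 arrays per group. EdU marks cells that copied DNA at any time during the culture, both fractions had been through the same culture, dye, fixation and sort, and each value is an average over 4 pooled animals. The fractions were not alike in amount. The study collected far fewer replicating than quiescent β-cells and extracted less RNA from them, before amplification. The part of this in the values was not tested.

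Glucose enters rodent β-cells mainly through the transporter GLUT2, is phosphorylated, and its carbon is passed to the mitochondria as pyruvate. There it is burned or carboxylated to refill the tricarboxylic acid cycle, while shuttles carry the reducing power of cytosolic NADH across the inner membrane. The ATP made closes potassium channels and triggers insulin release, and uncoupling proteins can lower the ATP yield.

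The array reads each transcript through a single 60-base sequence, so the value of a gene is the value of that stretch. A 30-base part of each is shown to identify exactly what was measured, read 5′ to 3′, with the hexamer AATAAA, the commonest polyadenylation signal, in capitals where present.
Slc2a2: cctccaaaatctAATAAActggaccaatca
Slc2a1: catgagaaggacctcggaggctgagaactt
Pc: ggcgatgacctcatcctagagattgagtga
Glud1: tctaagtcgcaaacaAATAAAagctatttc
Gpd2: aaaatagtggccattgtagctgcctttttt
Mdh1: aatcattcatcaacccagtatccagatgtc
Me1: agagtcaaaagatctatcttttcttgtctg
Ucp2: agccaacctcatgacagacgacctcccttg

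On the rat build rn4, the full sequences lie at chr2:116065774-116065833 for *Slc2a2*, chr5:139718779-139718838 for *Slc2a1*, chr1:207212309-207212368 for *Pc*, chr16:9998543-9998602 for *Glud1* and chr3:39114416-39114475 for *Gpd2*, all on the plus strand. Those of *Mdh1* (chr14:102261426-102261485) and *Me1* (chr8:91839922-91839981) are on the minus strand. The *Ucp2* sequence, at chr1:157927128-157927571 on the plus strand, has its 60 bases spread over 444 bases of genome, so it joins separate stretches of the gene. Which exon or untranslated region each sequence falls in was not determined here. AATAAA was present in 2 of the 8 sequences, *Slc2a2* and *Glud1*, and in 9.04% of all 45598 sequences on the array. Its reverse complement TTTATT was in none of the 8 and in 3.53% of all. GC content ran from 35% in *Glud1* to 55% in *Slc2a1*, against a median of 43.3% on the array.

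The labelled cell types were checked on marker genes. A marker was called higher or lower at an unadjusted p of at most 0.05 by limma with at least a 2-fold difference. All 12 β-cell markers, insulin genes included, were well above background on every array. That mark does not tell cell types apart here. It was also held on all arrays by 35337 of the 45598 sequences, and by 6 of 6 endothelial, 4 of 4 δ-cell and 6 of 8 acinar markers. By array, it was held by 98.4% of the sequences on quiescent array 2, 96.4% on quiescent array 1 and 85.7% on quiescent array 3. On the replicating arrays the share was 80.8% to 87.3%. Among the β-cell markers *Mafa*, a transcription factor of mature β-cells, was lower in the replicating fraction (log2 ratio -1.01, with -0.94 and -0.48 for its other sequences). *Pdx1* (-0.76) and *Ucn3* (-0.60) were below 0 in all preparations without passing. In the other direction, *Iapp* (0.91, with -0.14 for its other sequence), *Pcsk1* (1.01) and *Nkx2-2* (0.30) were above 0 in all preparations without passing. Of the 12 ratios, 6 were above 0, and their median was 0.09. All 6 markers of cell division, *Mki67* and *Top2a* among them, were higher in the replicating fraction (median log2 ratio 3.50). Markers of other cells were also called: 2 of 8 α-cell, 3 of 10 fibroblast and stellate, 3 of 6 immune, 2 of 4 δ-cell, 1 of 2 PP-cell and 1 of 8 acinar markers were higher in the replicating fraction. By the same rule 4.44% of all sequences were higher and 4.18% lower, and a single call in a short list is too few to set against that share. Of the duct and endothelial markers 0 of 6 and 0 of 6 passed, with ratios as large as -1.75 (*Krt20*) and 1.33 (*Plvap*). The summed signal of the α-cell markers was 22800 to 90800 on the replicating arrays and 5920 to 17700 on the quiescent ones, and that of the fibroblast and stellate markers was 13300 to 38400 and 5030 to 6610. Of 8 housekeeping genes, 7 had a ratio above 0 and 1 (*Actb*) passed the test, with a median log2 ratio of 0.71 (0.40, 1.40 and 0.36 in preparations 1, 2 and 3). Quiescent array 2 stood apart most: its Pearson's r with the other arrays was 0.654 to 0.83 across sequences, whereas the replicating arrays had an r of 0.967 to 0.986 among themselves. It also carried 1583 spots marked as outliers, against 252 to 299 on the other arrays. The other quiescent arrays were uneven too. Quiescent array 1 had an r of 0.83 to 0.887 with every other array. Quiescent array 3 had an r of 0.943 to 0.969 with the replicating arrays, but 0.867 with quiescent array 1. The part of these differences in the values below was not tested. In sorted fractions such as these, fewer cells of a type and less RNA per cell cannot be told apart.

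Among the 8 genes, 3 were higher in replicating β-cells and none was lower at an unadjusted p of at most 0.05 with at least a 2-fold difference, the thresholds of the study. These were *Pc*, which makes oxaloacetate from pyruvate, *Mdh1*, the cytosolic malate dehydrogenase, and *Ucp2*, a mitochondrial carrier of the uncoupling protein family, with fitted folds of 2.91, 3.14 and 2.61. On the whole array, 4.44% of the sequences were higher by this rule and 4.18% were lower. Among the 35337 sequences well above background on all arrays, as these genes are, the shares were 5.52% and 4.45%. By limma's adjusted p (Benjamini-Hochberg over all 45598 sequences) none of the 8 genes passed 0.05, and neither did any other sequence (0%), although 4379 had an unadjusted p under 0.05. Cyclic loess, a scaling, a variance trend or leaving out samples gave up to 719 such calls over the array and none among the 8 genes. Without the block there were 99, again none among the 8 genes.

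**Figure D1:**
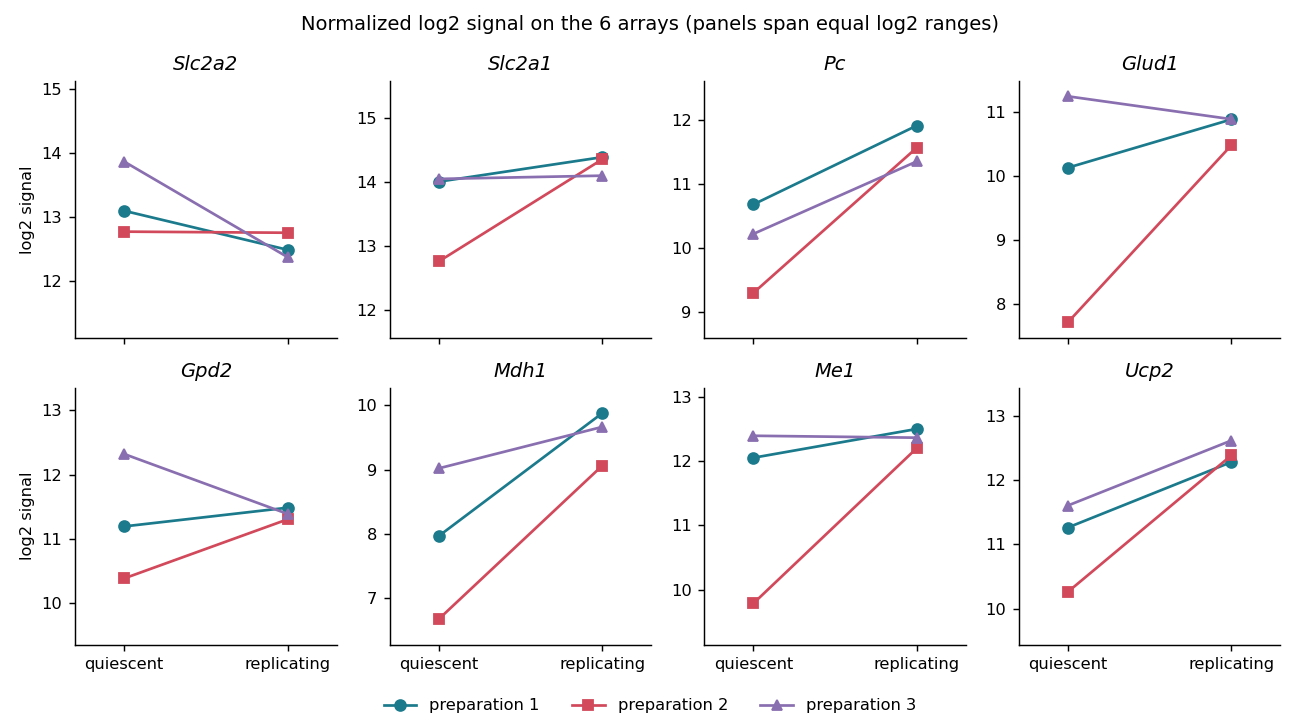
Normalized log2 signal (vertical axis) of the 8 genes on the 6 arrays, with a line joining the quiescent and the replicating array of each islet preparation; every panel spans the same number of log2 units. The quiescent arrays spread more widely than the replicating ones in all 8 panels, and quiescent array 2 is the lowest point for every gene but *Slc2a2*.

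*Slc2a2*, which encodes GLUT2, was the only one of the 8 genes with a lower value in the replicating fraction of every preparation. Its log2 signal was 12.49, 12.76 and 12.38 on replicating arrays 1, 2 and 3, and 13.10, 12.77 and 13.87 on the matching quiescent arrays. Every replicating array was below every quiescent one, but preparation 2 was separated by 0.02 only, and preparation 3 by 1.49. The means were 12.54 ± 0.19 and 13.25 ± 0.56 (SD, n = 3), a log2 ratio of -0.70 (standard error 0.40, 95% confidence interval -1.73 to 0.32). The unadjusted p by limma was 0.138 and the adjusted p 0.491, so a difference of either sign lay within the interval. In preparation 3 the ratio was in the lowest 0.228% of all sequences, and in preparation 2 it was near the middle, at percentile 51.1.

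The result for *Slc2a2* depended on both preparation 2 and preparation 3. Without preparation 2 the log2 ratio was -1.05, which meets the thresholds of the study (unadjusted p = 0.043, adjusted p = 0.928, limma). Without preparation 3 it was -0.31 (unadjusted p = 0.486, limma). With only quiescent array 2 left out and no pairing, it was -0.94 (unadjusted p = 0.0239, adjusted p = 0.599, limma). Relative to the median ratio of all sequences, *Slc2a2* was at -0.63, but at 0.26 when the processed signals were scaled to the 75th percentile. Its own ratio stayed below 0 there (-0.46), while the median of all sequences moved from -0.07 to -0.71. *Slc2a2* nonetheless had the lowest fitted ratio of the 8 genes under each alternative that was run.

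*Slc2a1* encodes GLUT1, the widespread high-affinity glucose transporter. The replicating arrays read 14.38, 14.35 and 14.09, and the quiescent arrays 14.00, 12.76 and 14.04. All replicating values were above all quiescent ones, by a wide margin for quiescent array 2 alone. The means were 14.27 ± 0.16 and 13.60 ± 0.73 (SD, n = 3), and the log2 ratio of 0.67 (standard error 0.42, 95% interval -0.39 to 1.74) did not pass (unadjusted p = 0.167, adjusted p = 0.503, limma). Without quiescent array 2 the ratio was 0.25.

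The transporters were thus ordered in the same way in each preparation: the log2 ratio of *Slc2a2* was below that of *Slc2a1* by 0.99, 1.61 and 1.54. The mean of these gaps was 1.38 ± 0.34 (SD, n = 3). The pair was picked after its values were seen, and 3 preparations cannot give an exact sign-flip p below 0.25. Non-overlapping groups with replicating arrays on top were seen for 4 of the 8 genes (*Slc2a1*, *Pc*, *Mdh1* and *Ucp2*), against 9.01% of the sequences on the array, and in the other direction for *Slc2a2*, against 7.1%. The ratio was above 0 in all preparations for the same 4 genes, against 15.7% of the sequences, and below 0 in all for *Slc2a2*, against 20.5%.

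*G6pc2* encodes the islet glucose-6-phosphatase subunit, which returns glucose-6-phosphate to glucose, and no spot carried its name. A single sequence described by its gene number (681817) read 6.36 to 6.59 on the 6 arrays, well above background on 4 of them, with a log2 ratio of 0.02 (standard error 0.30). As the name in the files was different, it was not counted with the 8 genes.

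**Figure D2:**
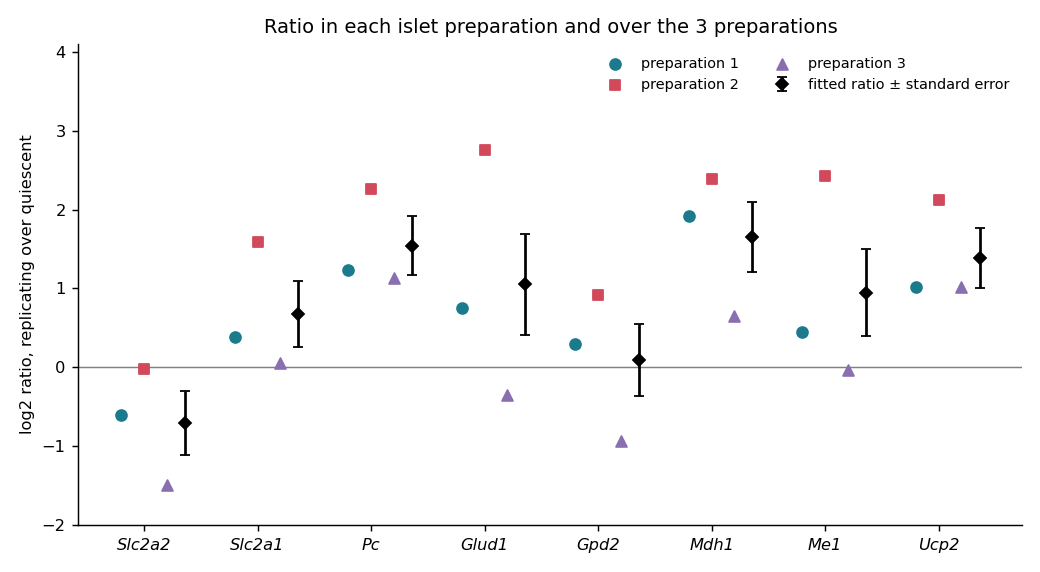
Log2 ratio of replicating over quiescent β-cells (vertical axis) for the 8 genes in each islet preparation, with the fitted ratio and its standard error beside them. *Pc*, *Mdh1* and *Ucp2* lie above 0 in all preparations with fitted ratios of 1.54, 1.65 and 1.39, *Slc2a2* lies lowest at -0.70, and preparation 2 gives the highest ratio for every gene.

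Of the enzymes that feed the tricarboxylic acid cycle, *Pc* (pyruvate carboxylase, the main anaplerotic enzyme of the β-cell) was higher in the replicating fraction. Its log2 signal was 11.91, 11.56 and 11.35 on the replicating arrays and 10.68, 9.30 and 10.22 on the quiescent ones. The groups were well apart, and the lowest replicating array was above the highest quiescent one. The means of 11.61 ± 0.28 and 10.07 ± 0.70 (SD, n = 3) gave a log2 ratio of 1.54 (standard error 0.38, 95% interval 0.58 to 2.50). By limma, the adjusted p was 0.475 and the unadjusted one 0.00887. The ratio was 1.23, 2.27 and 1.13 in preparations 1, 2 and 3, and 1.16 without quiescent array 2. *Pc* was the single gene of the 8 that met the study's thresholds under each alternative run, with an unadjusted p of 0.00589 to 0.0484.

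*Glud1* encodes glutamate dehydrogenase, the mitochondrial enzyme through which leucine and glutamine drive insulin release. It read 10.88, 10.48 and 10.88 on the replicating arrays and 10.13, 7.72 and 11.24 on the quiescent arrays. The replicating arrays were close together, whereas quiescent array 2 was far below and quiescent array 3 was above all of them. With means of 10.75 ± 0.23 and 9.70 ± 1.80 (SD, n = 3), the log2 ratio of 1.05 had a standard error of 0.64 (95% interval -0.59 to 2.69) and did not pass (unadjusted p = 0.161, adjusted p = 0.501, limma). The ratio was 0.75, 2.76 and -0.36 in the 3 preparations, and 0.06 without quiescent array 2. Without preparation 3 it was 1.76 and met the thresholds (unadjusted p = 0.0435, adjusted p = 0.203, limma).

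Next came an enzyme of each NADH shuttle. *Mdh1*, which acts in the malate-aspartate shuttle, read 9.88, 9.06 and 9.66 in replicating β-cells and 7.96, 6.67 and 9.02 in quiescent β-cells. The groups did not overlap, although replicating array 2 and quiescent array 3 differed by little. The means were 9.53 ± 0.42 and 7.88 ± 1.18 (SD, n = 3), a log2 ratio of 1.65 (standard error 0.44, 95% interval 0.52 to 2.78, unadjusted p = 0.0129, adjusted p = 0.475, limma). By preparation the ratio was 1.91, 2.39 and 0.65. It was 1.04 without quiescent array 2 (unadjusted p = 0.0479, limma), and without preparation 1 it was 1.52 and no longer passed (unadjusted p = 0.0887, limma).

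*Gpd2* encodes the mitochondrial glycerol-3-phosphate dehydrogenase of the glycerol phosphate shuttle, an enzyme that is abundant in β-cells. The replicating arrays read 11.48, 11.30 and 11.39 and the quiescent arrays 11.19, 10.38 and 12.32. The replicating values fell inside the quiescent range. The means of 11.39 ± 0.09 and 11.30 ± 0.97 (SD, n = 3) differed by 0.09 on the log2 scale (standard error 0.45, 95% interval -1.06 to 1.25, unadjusted p = 0.845, adjusted p = 0.935, limma), and the interval allows for a difference of more than 2-fold in either direction. The ratio was 0.29, 0.92 and -0.93 in the 3 preparations, and its sign turned under cyclic loess (-0.24) and without quiescent array 2 (-0.37). The ratio of *Gpd2* was nonetheless below that of *Mdh1* in each preparation, by 1.62, 1.47 and 1.58.

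*Me1*, the cytosolic malic enzyme, which returns malate to pyruvate and makes NADPH, read 12.50, 12.20 and 12.37 on the replicating arrays and 12.05, 9.78 and 12.40 on the quiescent arrays. Quiescent array 3 was inside the replicating range, and only quiescent array 2 was far away. The means were 12.36 ± 0.15 and 11.41 ± 1.42 (SD, n = 3). The log2 ratio of 0.95 (standard error 0.56, 95% interval -0.47 to 2.36) did not pass, with an unadjusted p of 0.148 and an adjusted p of 0.494 by limma, and it was 0.13 without quiescent array 2.

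*Ucp2* read 12.28, 12.39 and 12.62 on the replicating arrays and 11.26, 10.26 and 11.61 on the quiescent ones. All replicating arrays were above all quiescent arrays. The means were 12.43 ± 0.17 and 11.04 ± 0.70 (SD, n = 3), and the log2 ratio was 1.39 (standard error 0.38, 95% interval 0.42 to 2.35, unadjusted p = 0.0139, adjusted p = 0.475, limma). The preparations gave 1.02, 2.13 and 1.01. Without quiescent array 2 the ratio was 0.995, just under the fold threshold (unadjusted p = 0.00714, limma), and without preparation 1 it was 1.57 and no longer passed (unadjusted p = 0.0573, limma).

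The genes also varied in a common way. The SD was larger among the quiescent than among the replicating arrays for 8 of 8 genes, as it was for 85.8% of all sequences. Quiescent array 2 was the lowest of the 6 arrays for 7 of the 8 genes, against 35.2% of all sequences, and the exception was *Slc2a2*. The median ratio of the 8 genes was accordingly uneven, 0.60 in preparation 1, 2.20 in preparation 2 and 0.01 in preparation 3, and 1.00 over all of them. For all sequences the medians were -0.02, -0.05 and -0.05 by preparation and -0.07 in the fit. Scaling to the 75th percentile moved the median of all sequences to -0.39, and doing so on the processed signals moved it to -0.71. *Pc*, *Mdh1* and *Ucp2* were still above 0 under both, at 1.23 or more.

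Of the 28 pairs that can be made of the 8 genes, 17 had their ratios in the same order in all preparations. All 7 pairs with *Slc2a2* were among them, with *Slc2a2* as the lower gene. *Gpd2* was the second lowest in each preparation. By the largest gap within a preparation, the closest pair was *Pc* and *Ucp2*, whose log2 ratios differed by 0.21, 0.14 and 0.12, with *Pc* the higher, while the ratios themselves ranged over about 1 log2 unit. These pairs share arrays and were read after the values were known, so they are given as a description.

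**Figure D3:**
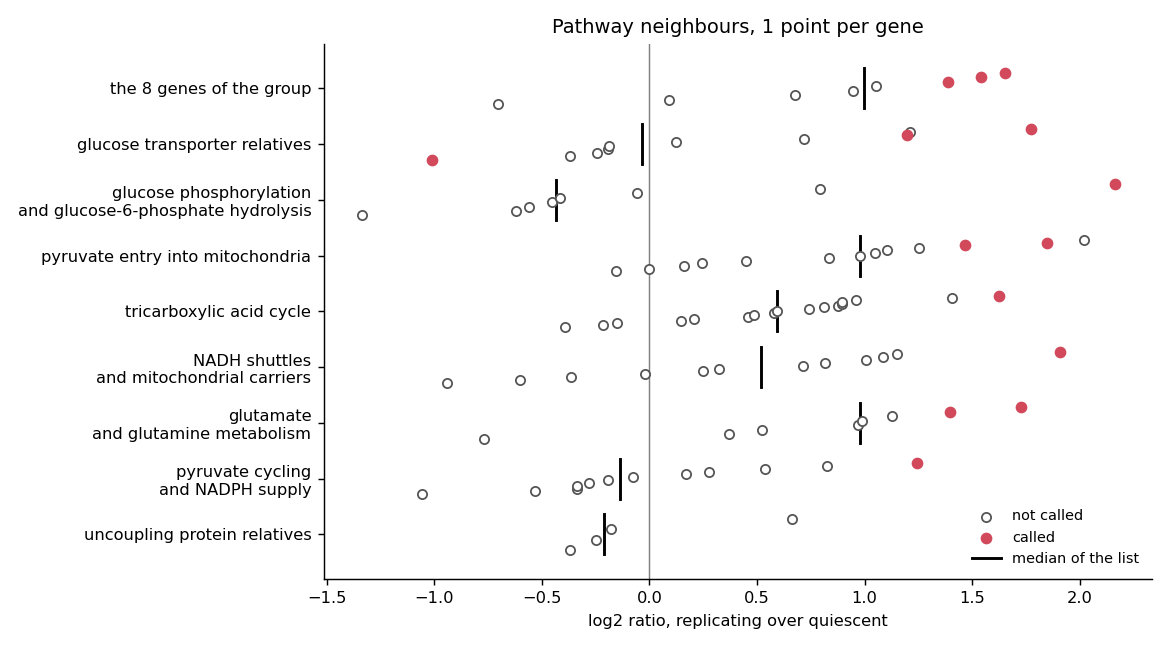
Log2 ratio of replicating over quiescent β-cells (horizontal axis) for the 8 genes and for 8 lists of neighbouring genes, 1 point per gene; filled points meet the study's thresholds and the bars are list medians. Medians lie near 1 for pyruvate entry and for glutamate metabolism (0.98 each), and below 0 for glucose phosphorylation (-0.43), but preparation 3 alone gave medians of -0.09, -0.40 and 0.24 for these lists.

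The neighbouring steps of the same pathways were read from 8 lists with 86 genes, of which 84 were on the array, and *Idh3b* and *Slc25a12* had no spot under their names. By the same thresholds 10 were higher in the replicating fraction and 1 was lower, with 53 ratios above 0 and a median log2 ratio of 0.45. Array-wide, 4.44% and 4.18% of the sequences met these thresholds (5.52% and 4.45% of those well above background), and a single call among the 17 genes of the tricarboxylic acid cycle is near that share. The median of the housekeeping genes, 0.71, was above that value. None of these genes passed the adjusted p by limma, which was 0.251 for *Hk3*, 0.328 for *Slc25a10* and 0.475 or more for the others named from the lists. Each gene entered the lists by its brightest sequence, and other sequences of some genes gave the other sign. Examples picked afterwards are *Hk2* (-1.34, other sequence 1.39) and *Gpt2* (1.13, other sequence -1.33). With the median over the sequences of a gene, 8 pathway genes were higher and 0 lower.

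Among 10 other glucose transporters, 2 were higher and 1 lower, with a median of -0.03. *Slc2a6*, which encodes GLUT6, had a ratio of 1.77 (standard error 0.57, unadjusted p = 0.025, limma) and *Slc2a3*, the gene of the neuronal transporter GLUT3, one of 1.20 (standard error 0.33, unadjusted p = 0.0152, limma). *Slc2a6* did not pass without preparation 1 (1.61) or preparation 2 (1.20). A second *Slc2a3* sequence gave -0.94, so the array did not settle the direction for this gene. *Slc2a13*, a proton-coupled inositol transporter, was lower at -1.01 (standard error 0.33, unadjusted p = 0.0277, limma), but was well above background on only 2 of the 3 replicating arrays, and its other sequence gave -0.07.

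Of 8 genes of glucose phosphorylation and glucose-6-phosphate hydrolysis, 1 was higher, *Hk3*, a low-Km hexokinase known mainly from blood cells. Its ratio was 2.16 (standard error 0.32, unadjusted p = 0.000895, limma) and was steady over the preparations at 2.10, 2.45 and 1.94. Among the 6 immune markers, 3 were higher in the same fraction, by 1.18 for *Cd14* to 1.48 for *Cd74*, and their part in the *Hk3* value was not tested. The median of the list was -0.43, or -0.37, -0.85 and 0.24 in preparations 1, 2 and 3.

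Of 13 genes of pyruvate entry into mitochondria, 11 had a ratio above 0 and 2 passed. *Pdhb*, a subunit of the pyruvate dehydrogenase E1 component, was higher at 1.47 (standard error 0.35, unadjusted p = 0.00823, limma) and *Pdk4*, a kinase that inhibits the same complex, at 1.85 (standard error 0.65, unadjusted p = 0.0353, limma). *Pdhb* was the only one of the 5 pyruvate dehydrogenase complex genes in the list that passed, and it did not pass without preparation 1 (1.40). The ratio of *Pdk4* was 1.52, 3.59 and 0.43 by preparation, and it did not pass without preparation 2 (0.975) or without preparation 1 (2.01). The list's median of 0.98 was made of 0.64, 1.89 and -0.09 in the 3 preparations. Other sequences, looked up afterwards, gave -0.22 for *Mpc2* (2.02 in the list) and -0.15 for *Dlat* (1.25 in the list). They gave -0.06 and 0.93 for *Pdha1*, 0.06 to 1.48 for *Pdk1*, and 0.22 and 0.41 for *Pdp2*.

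The tricarboxylic acid cycle list had 17 genes on the array, 14 of them above 0, and *Sdhd*, a membrane anchor of succinate dehydrogenase, was the one that passed (1.62, standard error 0.61, unadjusted p = 0.0428, limma). *Sdhd* did not pass without preparation 2 (0.80), without preparation 1 (1.88), without quiescent array 2 (0.53) or without the block. The list's median was 0.59, again uneven at 0.57, 1.62 and -0.13. *Mdh2*, the mitochondrial partner of *Mdh1* and named after its values were seen, had ratios of 1.18, 1.54 and -0.09 and did not pass (unadjusted p = 0.0962, limma).

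Among 12 genes of the NADH shuttles and mitochondrial carriers, *Slc25a10*, the dicarboxylate carrier that exchanges malate and succinate for phosphate, was higher at 1.91 (standard error 0.32, unadjusted p = 0.00174, limma). Like *Hk3*, it was even over the preparations, at 2.16, 2.00 and 1.57. The median of the list was 0.52. *Gpd1*, the cytosolic partner of *Gpd2*, was looked up after its values were seen and had ratios of -0.97, -0.43 and -0.39 (unadjusted p = 0.12, limma).

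Of 8 genes of glutamate and glutamine metabolism, 2 were higher, and the median was 0.98, made of 0.50, 2.33 and -0.40 by preparation. Among them was *Abat*, the GABA transaminase, with a ratio of 1.40 (standard error 0.42, unadjusted p = 0.0195, limma). It did not pass without preparation 1 (1.48), preparation 2 (0.96) or quiescent array 2 (0.86).

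Of 12 genes of pyruvate cycling and NADPH supply, *Pgd*, the phosphogluconate dehydrogenase of the pentose phosphate pathway, was higher at 1.24 (standard error 0.35, unadjusted p = 0.0157, limma), and the median was -0.13. *Pgd* did not pass without preparation 1 (1.23), preparation 2 (0.999) or quiescent array 2 (0.92). None of the 4 relatives of *Ucp2* passed, and none kept one sign over the preparations (median -0.21). *Slc25a27*, a brain uncoupling protein, entered that median at -0.37, but its 4 other sequences gave 0.31 to 1.22, and *Ucp3* was well above background on only 1 replicating and 2 quiescent arrays.

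**Figure D4:**
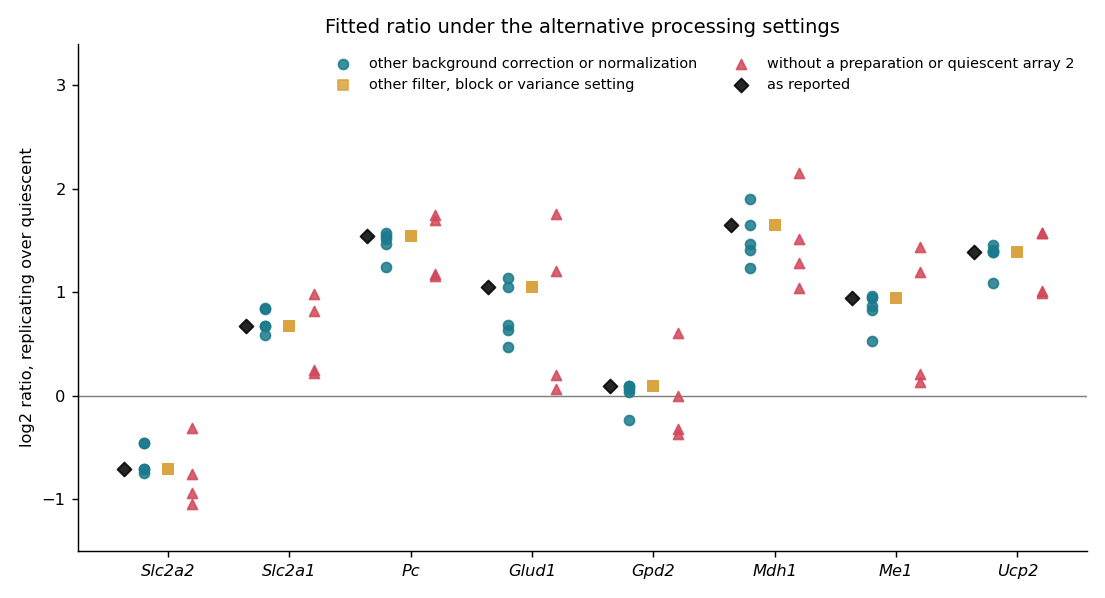
Fitted log2 ratio of replicating over quiescent β-cells (vertical axis) for the 8 genes as reported and under the alternative settings, grouped by the kind of change. *Pc*, *Mdh1* and *Ucp2* stay above 0 throughout, *Slc2a2* stays below, and leaving out samples moves *Glud1* from 0.06 to 1.76.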

How the data were processed

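Amplified cDNA labelled with Cy3 was hybridised to Agilent rat arrays. The authors deposited the spot intensity values read by Feature Extraction 10.7.3.1 and a table of log2 values, made with normexp and quantile normalization. This log2 table was used. Its values differed by at most 0.000245 from normexp (offset 50) and quantile values computed from the scanner intensities, which settles their scale. Spots marked as outliers (252 to 1583 per array) were left out, none was saturated, and spots of a sequence were averaged, leaving 45598 sequences. Limma 3.58.1 (R 4.3.3, data.table, version 1.17.8) was run on all 6 arrays, and each preparation formed a block, because the study describes a paired test. The p-values were adjusted by Benjamini-Hochberg over all sequences. By the same thresholds, the study reported more genes in each direction than the 2023 higher and 1905 lower sequences found here. Its selection was therefore not reproduced exactly, and the reason was not tested. A gene with several sequences was represented by the one with the highest mean log2 value. The arrays were paired by the replicate number in the labels. That a pair shares an islet preparation rests on the study's methods, which describe a paired test. Across sequences, the 2 arrays of a preparation deviated from their groups with an r of 0.0561, 0.242 and 0.258. The genes named are the 8 genes, each pathway gene that met the thresholds, and others marked as picked afterwards; some genes that meet this rule are not reported here. The genes and lists were chosen with earlier results of these data known. The code was tested on simulated data. Alternatives were other background corrections and scalings, filters, the block, a variance trend and samples left out. The number of arrays limits the precision. No genome was used; positions are those of the array files, and a RefSeq table of the GRCr8 assembly gave only the gene number of *G6pc2*.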

Additional observations from a re-analysis of the deposited data

How the results depend on the processing

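With processed signals scaled to the 75th percentile, 662 sequences were higher and 3193 lower in place of 2023 and 1905, 1 of the 8 genes was higher in place of 3 (*Mdh1* at 1.41, unadjusted p = 0.0617, and *Ucp2* at 1.45, unadjusted p = 0.0675, by limma, did not pass), and 2 pathway genes were higher and 2 lower in place of 10 and 1. Scaling the normexp values in that way gave 5862 lower sequences and 2 lower pathway genes. Cyclic loess and the median over the sequences of a gene each gave 0 lower pathway genes, and cyclic loess turned *Gpd2* to -0.24. Without the replicate block, 878 sequences were lower, and *Pc*, *Mdh1* and *Ucp2* still met the thresholds (unadjusted p = 0.00825, 0.033 and 0.0114 by limma); it changed no other call among the 8 genes. Leaving out a preparation gave 518 to 5112 higher and 63 to 5633 lower sequences, 1 to 4 of the 8 genes higher and 0 to 1 lower, and 2 to 22 pathway genes higher and 0 to 4 lower. The range was -1.05 to -0.31 for *Slc2a2*, 0.22 to 0.99 for *Slc2a1*, 1.18 to 1.75 for *Pc*, 0.20 to 1.76 for *Glud1*, -0.32 to 0.61 for *Gpd2*, 1.28 to 2.15 for *Mdh1*, 0.21 to 1.43 for *Me1* and 1.02 to 1.57 for *Ucp2*. Leaving out quiescent array 2 with no pairing, which was chosen after seeing the data, gave 267 lower sequences, 6 higher and 0 lower pathway genes and -0.37 for *Gpd2*, and *Pc* and *Mdh1* passed while *Ucp2*, at 0.995, did not. Without preparation 1 the counts of sequences were lowest and of the 8 genes only *Pc* passed, without preparation 2 *Slc2a2* was the lower gene, and without preparation 3 the counts of sequences were highest and *Glud1* passed too. The cause was not tested. Of the other values for the 8 genes, 101 kept their direction and side of the threshold, as did 118 for the named pathway genes, and 36 of the latter lost the call. *Mdh1* read 6.67 on quiescent array 2, whose lowest log2 value was 5.65, and its ratio moved with the background correction and scaling, to 1.90 with a normexp offset of 16 and to 1.23 with 75th percentile scaling.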
